A study of Mus musculus with 7 samples.

Results

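The 7 genes described here were Jchain, Xbp1, Prdm1, Mzb1, Slamf7, Sdc1 and Tnfrsf17, taken by symbol from a table of 24341 genes. They were chosen from measured values, because the level of Jchain was higher in leukemic than in preleukemic samples of this same comparison, and the other 6 were added to ask whether the secretory plasma cell program was higher with it. All 7 genes were found in the table, and 5 of them passed the filter on low values (a sum of at least 10 FPKM over the 7 samples), as did 10541 of all genes. Prdm1 and Tnfrsf17 were under this filter. Since Jchain chose the set, levels and differences of the 7 genes are given as a description without a test.

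Plasma cells are the antibody-secreting end stage of the B lineage. In the usual course of differentiation, the repressor Blimp-1 (Prdm1) shuts off B-lineage regulators such as Pax5, and the spliced form of Xbp1 expands the endoplasmic reticulum (ER) so that large amounts of antibody can be folded, assembled and exported. The J chain (Jchain) joins IgM into pentamers and IgA into dimers, and its gene is known to be repressed by Pax5, as is Xbp1. JCHAIN transcript is also a classifier gene of kinase-activated human B-ALL, so its presence alone does not mark a plasma cell.

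The RNA came from B-cell precursor (BCP) cells of BALB/c mice hemizygous for the Eμ-Ret transgene, a Ret fusion oncogene driven by the immunoglobulin heavy chain enhancer. Per the labels, BCP cells of both groups were sorted by flow cytometry from spleen; the study describes BCP as B220int/CD43int/BP-1hi, but the gate and purity of single samples are not given in the sources used here. Moribund mice with overt disease gave the 3 leukemic samples and young healthy mice gave the 4 preleukemic samples, so disease state and age cannot be told apart. All 7 samples carried the transgene, no transgene-negative sample was among them, and the labels used here give neither the age of single mice nor whether animals were pooled. The unit is FPKM, fragments scaled to transcript length and to sequencing depth, which allows levels of different genes to be set side by side. The steps between low FPKM values gave a depth of 13500000 to 15950000 fragments per sample. In such bulk samples, fewer cells of a type and less RNA per cell cannot be told apart.

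The labelled cell type was checked first. All 15 BCP markers were above 1 FPKM in at least 1 sample. Their summed level was 4129 to 6948 FPKM in leukemic and 8371 to 10461 FPKM in preleukemic samples, and 10 of the 15 were lower in every leukemic sample. Enpep, which encodes the sort antigen BP-1, was at 19.1, 102 and 77.2 FPKM in leukemic replicates 1 to 3, and at 134, 210, 180 and 191 FPKM in preleukemic replicates 1 to 4. Markers of red cell precursors (14 of 14 higher without overlap), macrophages (13 of 15) and neutrophils (12 of 14) went the other way. Over the 10541 genes tested, 14.9% were higher and 17.1% were lower without overlap, while the marker counts also hold genes under the filter. The summed red cell level was 5668, 26290 and 12776 FPKM in leukemic samples, 2805 FPKM in preleukemic replicate 1 and 422 to 445 FPKM in the other 3. Transcripts known from other cells were thus present in leukemic libraries, red cell transcripts most of all in leukemic replicate 2, and preleukemic replicate 1 stood apart from its group.

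Promoters are shown for Jchain, the gene that chose the set, for Xbp1, the regulator of the secretory ER, and for Slamf7, the member whose levels lay lowest against the preleukemic group. Sequences are from RefSeq on GRCm38.p6 and run from 250 bases before to 50 bases after the transcription start, 5′ to 3′ on the gene's strand. They stand at chr5:88527848-88528147 (minus strand) for Jchain, chr11:5520391-5520690 (plus strand) for Xbp1 and chr1:171648950-171649249 (minus strand) for Slamf7. The RefSeq start of Slamf7 lies inside the span that the deposited table gives. Capitals mark matches, on either strand, to ACGTG (the core of the element bound by XBP1) or CAGGTG (an E box of the E proteins).
Jchain: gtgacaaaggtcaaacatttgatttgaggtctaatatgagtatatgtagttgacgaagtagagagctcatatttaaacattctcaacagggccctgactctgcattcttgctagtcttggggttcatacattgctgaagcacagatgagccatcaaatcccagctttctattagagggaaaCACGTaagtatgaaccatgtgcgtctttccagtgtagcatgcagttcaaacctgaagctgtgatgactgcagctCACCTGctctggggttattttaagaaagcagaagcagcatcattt
Xbp1: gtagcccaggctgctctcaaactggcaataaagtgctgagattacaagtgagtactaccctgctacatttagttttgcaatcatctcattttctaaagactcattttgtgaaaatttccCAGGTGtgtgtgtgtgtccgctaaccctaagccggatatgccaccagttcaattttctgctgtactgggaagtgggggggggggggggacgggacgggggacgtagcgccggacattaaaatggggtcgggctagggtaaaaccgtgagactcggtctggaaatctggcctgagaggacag
Slamf7: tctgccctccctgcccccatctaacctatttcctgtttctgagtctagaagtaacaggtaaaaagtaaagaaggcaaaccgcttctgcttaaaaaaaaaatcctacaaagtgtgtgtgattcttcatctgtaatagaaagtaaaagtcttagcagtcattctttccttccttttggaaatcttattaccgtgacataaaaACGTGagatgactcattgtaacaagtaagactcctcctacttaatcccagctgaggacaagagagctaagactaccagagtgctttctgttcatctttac
ACGTG was found at position -69 of Jchain and -50 of Slamf7, with the first transcribed base as 0, and not in the window of Xbp1. CAGGTG was found at position 5 of Jchain and -131 of Xbp1. A match is a run of letters and says nothing of binding. Of 32851 mouse promoters of the same length, 19.6% held ACGTG and 20.2% held CAGGTG. Of the 7 genes, 6 had a promoter in the RefSeq table used, and the other 3 windows (Prdm1, Sdc1 and Tnfrsf17) held neither ACGTG nor, except for Prdm1 at position -87, CAGGTG. The letters CCACG (32.8% of promoters), part of an element bound by ATF6 that can overlap ACGTG, were found at positions -110 and -78 of Prdm1 and -168 of Sdc1. CCAAT (37.4%) was in the windows of Prdm1 (-31) and Sdc1 (-82), and GAGGAA (28.3%), the core bound by PU.1, in those of Prdm1 (-156), Sdc1 (-230) and Tnfrsf17 (-120).

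Jchain, whose values chose the set, was at 81.5, 112 and 143 FPKM in leukemic replicates 1 to 3, and at 20.8, 20.2, 22.2 and 18.6 FPKM in preleukemic replicates 1 to 4. Every leukemic value was above every preleukemic value, and the preleukemic samples lay close together. The means were 112 ± 30.8 (SD, n = 3) and 20.5 ± 1.49 FPKM (SD, n = 4), a 5.49-fold difference of means, with a coefficient of variation of 27.5% in leukemic and 7.26% in preleukemic samples. On the log2(FPKM + 1) scale the difference was 2.37 ± 0.18 (SE), larger than that of 98.7% of the genes tested. Jchain (chr5:88519809-88527897, GRCm38) thus lay at percentiles 70.4 to 74.1 of the genes above the floor in preleukemic samples and at percentiles 93.4 to 97 in leukemic samples. For a 1393-base transcript these values stand for about 1483, 2046 and 2724 fragments in leukemic and 300 to 363 in preleukemic samples. Counting alone then gives an error of 1.92% to 5.77%, well under the spread of the leukemic samples. The difference lay between 2.17 and 2.58 with any 1 sample left out.

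Xbp1 and Prdm1, the transcription factors of the program, did not follow this pattern. Xbp1 (chr11:5520641-5525993) was at 40.7, 51.9 and 56.7 FPKM in leukemic and 50.8, 50.1, 43.7 and 46.2 FPKM in preleukemic samples. The preleukemic values lay inside the leukemic range, and the log2 difference was 0.05 ± 0.12 (SE). Values per gene do not separate the spliced from the unspliced Xbp1 transcript, so the active form was not measured here. Prdm1 (chr10:44437174-44458748), which encodes Blimp-1, was at 0.523, 1.6 and 0.705 FPKM in leukemic and 0.393, 0.767, 0.676 and 0.922 FPKM in preleukemic samples. The groups overlapped, and the highest value, in leukemic replicate 2, was still near 1 FPKM where Xbp1 was near 50.

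Mzb1, an ER co-chaperone that assists the assembly and secretion of IgM together with Grp94, was the most abundant of the 7 genes. It was at 277, 778 and 638 FPKM in leukemic samples and at 686, 874, 860 and 916 FPKM in preleukemic samples (chr18:35647265-35649367). Leukemic replicate 1 was far below the rest, and leukemic replicate 2 lay above preleukemic replicate 1. The means were 564 ± 258 (SD, n = 3) and 834 ± 101 FPKM (SD, n = 4), and the log2 difference of -0.68 ± 0.33 (SE) went to -0.23 without leukemic replicate 1 and to -0.98 without leukemic replicate 2. In all 7 samples the gene was at or above percentile 98.6, so that transcripts of this secretory helper were abundant in preleukemic samples too.

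The 3 surface receptors of the set differed from each other. Slamf7 (chr1:171632403-171653037), a SLAM family receptor of plasma cells, NK cells and other leukocytes, was at 21.3, 51.5 and 57.4 FPKM in leukemic and 71.6, 96.1, 98 and 108 FPKM in preleukemic samples. Every leukemic value was below every preleukemic value, with means of 43.4 ± 19.3 (SD, n = 3) and 93.4 ± 15.4 FPKM (SD, n = 4) and a log2 difference of -1.19 ± 0.33 (SE). The difference was -0.75 without leukemic replicate 1, the sample with the lowest Slamf7, Mzb1 and Enpep. Sdc1 (chr12:8771396-8793687), syndecan-1 or CD138, the classical plasma cell surface marker that B-cell precursors also carry, was at 6.04, 0.994 and 4.09 FPKM in leukemic and 1.19, 1.08, 1.87 and 1.13 FPKM in preleukemic samples. Leukemic replicates 1 and 3 were above the preleukemic range and leukemic replicate 2 was the lowest of all 7 samples. The log2 difference of 0.85 ± 0.42 (SE) lay between 0.47 and 1.38 with 1 sample left out, without leukemic replicates 1 and 2, respectively. Tnfrsf17 (chr16:11313809-11320068), the receptor BCMA that binds the survival factors BAFF and APRIL, was at 0.21, 0.419 and 0.801 FPKM in leukemic and 0.221, 0.01, 0.24 and 0.121 FPKM in preleukemic samples. For an 815-base transcript these values stand for about 2, 4 and 8 fragments in leukemic and 2, 0, 2 and 1 in preleukemic samples, so a difference was not detectable at this depth.

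**Figure D1:**
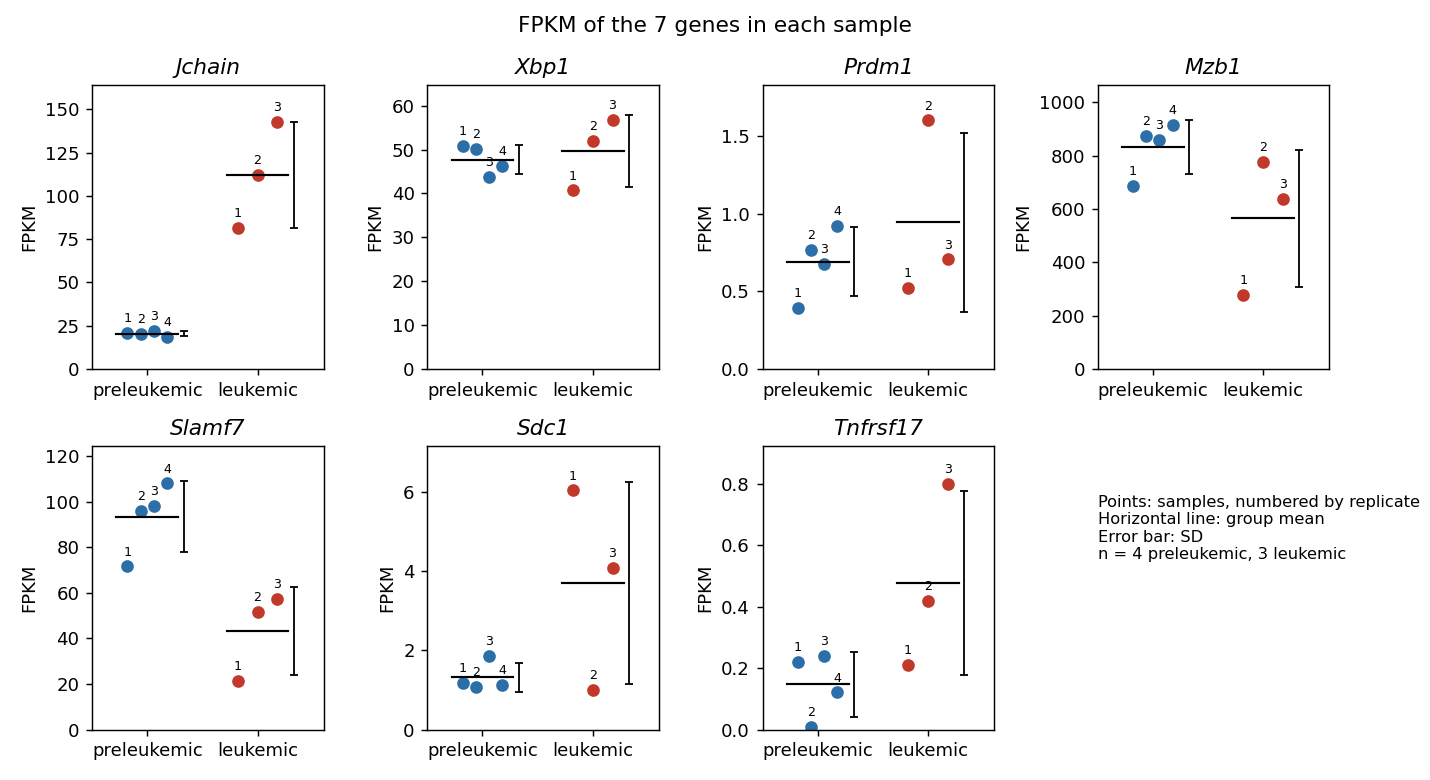
FPKM (y axis, linear from 0, a scale of its own for each gene) of the 7 genes in 4 preleukemic (blue) and 3 leukemic (red) samples. Points are samples numbered by replicate, horizontal lines are means and error bars are SD; the groups are apart for Jchain (81.5 to 143 against 18.6 to 22.2 FPKM) and, in the other direction, for Slamf7 (21.3 to 57.4 against 71.6 to 108 FPKM), and overlap for the other 5 genes.

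Of the 7 genes, Jchain alone was higher in every leukemic sample and Slamf7 alone was lower in every leukemic sample. Over the 10541 genes tested, leukemic and preleukemic values did not overlap for 32% of genes, with 14.9% higher and 17.1% lower. Because the set was chosen on this comparison, nothing is read from the members' counts against these shares. The level of Jchain relative to its companions shifted by more than its own level where they were lower. Jchain stood at 0.294, 0.144 and 0.224 of the Mzb1 FPKM in leukemic samples and at 0.0303, 0.0231, 0.0258 and 0.0203 of it in preleukemic samples. Relative to Slamf7 the ratio of FPKM values was 3.82, 2.18 and 2.5 in leukemic and 0.173 to 0.291 in preleukemic samples, so Jchain went from well below to above Slamf7. Relative to Xbp1 it was 2, 2.16 and 2.52 in leukemic and 0.402 to 0.508 in preleukemic samples, with the order of the leukemic samples the same as for Jchain itself. Over the 7 samples, which share the split into groups, Pearson's r of log2(FPKM + 1) with Jchain was 0.31 for Xbp1, -0.49 for Mzb1, -0.70 for Slamf7 and 0.58 for Sdc1.

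The wider plasma cell list, 21 genes without the 7, had 16 genes tested. Of these, 4 rose (Fam46c, Il6ra, Ell2 and Ly6c2) and 12 were not called, by limma at a Benjamini-Hochberg adjusted p under 0.05. That is 25% of the genes tested, where 14.7% of all 10541 genes were called, 8.47% higher and 6.26% lower. Under quantile normalization the split over all genes was 754 higher and 907 lower in place of 893 and 660. The median log2 difference of the list was 0.00, beside -0.02 for all genes tested, with a range of -0.85 to 3.57. Without preleukemic replicate 2, 3 or 4 and without leukemic replicate 3 the number called on the list was 1, 0, 0 and 2, and the number over all genes was 443, 271, 149 and 1402 (1553 with all samples).

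Fam46c (Tent5c), a poly(A) polymerase that stabilises antibody transcripts in plasma cells, was at 13.6, 55.6 and 28.5 FPKM in leukemic and 6.67, 1.16, 0.514 and 0.441 FPKM in preleukemic samples (log2 difference 3.57 ± 0.68, SE; adjusted p = 0.0192, limma). Its order among leukemic samples, and its high value in preleukemic replicate 1, were those of the summed red cell markers, and the part of red cell precursors in it was not tested. Il6ra, the receptor chain for the plasma cell growth factor IL-6, was at 8.38, 3.16 and 7.93 against 0.723 to 1.44 FPKM (1.82 ± 0.32; adjusted p = 0.0167, limma). Ell2, an elongation factor that favours the secretory form of antibody mRNA, was at 4.7, 14.5 and 8 FPKM in leukemic and 3.93, 0.875, 1.44 and 2.02 FPKM in preleukemic samples (1.69 ± 0.42; adjusted p = 0.0387, limma). As for Fam46c, its leukemic order was that of the red cell sum and its highest preleukemic value was in replicate 1. The macrophage sum shared both traits, and the BCP, mature B-cell and T and NK cell sums shared the leukemic order. The order was thus not particular to red cell markers, and the part of any of these cells in Fam46c and Ell2 was not tested. Ly6c2, a surface antigen of monocytes as well as of plasma cells, was at 4.93, 10.6 and 11.9 against 1.1 to 3.6 FPKM (1.62 ± 0.35; adjusted p = 0.0259, limma). Macrophage markers were higher in the same libraries, summing to 167, 369 and 260 FPKM in leukemic and 38.7 to 89.8 FPKM in preleukemic samples. Neutrophil markers were higher too, at 1598, 1467 and 1830 against 154 to 895 FPKM. Il6ra was lowest in leukemic replicate 2, where the macrophage sum was the highest and the neutrophil sum the lowest of the group. The part of these cells in the rises of Il6ra and Ly6c2 was not tested.

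The most abundant genes of the plasma cell list were not called. Pou2af1, the coactivator OCA-B, was at 417, 497 and 390 FPKM in leukemic and 426 to 550 FPKM in preleukemic samples (adjusted p = 0.422, limma). Under quantile normalization Pou2af1 was called lower (log2 difference -0.43; adjusted p = 0.0291, limma). Cxcr4, the receptor that holds plasma cells in bone marrow, was at 90.2 to 131 and 93.3 to 136 FPKM (adjusted p = 0.926, limma). Cd93, which plasma cells and early B cells share, was at 56, 116 and 155 against 148 to 185 FPKM (log2 difference -0.73 ± 0.31, SE; adjusted p = 0.147, limma). Irf4, the factor that starts plasma cell differentiation and also acts in pre-B cells, was named after its values were seen and was at 79, 55.9 and 48.4 FPKM in leukemic and 70.7 to 83.2 FPKM in preleukemic samples (adjusted p = 0.219, limma). Its order among leukemic samples was the reverse of that of Jchain. The antibody constant region genes were not analysed here, so the level of the protein that the J chain joins cannot be set beside Jchain.

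B-lineage genes that plasma cells silence were examined next, because Jchain and Xbp1 are known targets of Pax5. Of 21 genes tested, 4 fell (Pax5, Ebf1, Foxo1 and Blk) and 17 were not called. That is a called share of 19%, beside 14.7% of all genes tested (8.47% higher and 6.26% lower). The median log2 difference was -0.54, beside -0.02 for all genes, and 16 of the 21 were below 0. Pax5, the guardian of B-cell identity, was at 106, 91.3 and 120 FPKM in leukemic and 156, 193, 186 and 191 FPKM in preleukemic samples (log2 difference -0.78 ± 0.12, SE; adjusted p = 0.0134, limma). It remained well transcribed in every leukemic sample, and leukemic replicate 3 had both the highest Pax5 and the highest Jchain of its group. Leukemic replicate 1 had more Pax5 than leukemic replicate 2 (106 against 91.3 FPKM) and less Jchain (81.5 against 112 FPKM). The part of Pax5 in the level of Jchain was not tested. Ebf1, the partner of Pax5 in B-lineage specification, was at 107, 108 and 114 against 156 to 193 FPKM (-0.70 ± 0.09; adjusted p = 0.00952, limma). Foxo1, which drives the recombinase genes, was at 57.2, 104 and 98.6 against 144 to 179 FPKM (-0.95 ± 0.21; adjusted p = 0.0277, limma), and the kinase gene Blk at 0.344, 1.79 and 1.66 against 4.26 to 25.2 FPKM (-2.58 ± 0.53; adjusted p = 0.0236, limma). Blnk and Id3, among the list's most abundant genes, had log2 differences of -0.54 and -0.29 and were not called (adjusted p = 0.0924 and 0.217, limma). With preleukemic replicate 2, 3 or 4 left out, 2, 1 and 1 genes of this list were called, and without leukemic replicate 2 there were 7, of which 1 was higher and 6 were lower. The summed BCP markers were lower in the same libraries, and their part in these falls was not tested.

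The secretory machinery that plasma cells expand was then followed from the ER membrane to the Golgi. Of 92 genes on 4 lists, 90 were tested, and 86 of them differed by less than 0.5 on the log2 scale. The median log2 difference was 0.01, and 7 genes were called, 3 higher and 4 lower. That is 7.78%, beside 14.7% of all genes tested. Under quantile normalization 7 were also called, but 0 higher and 7 lower by limma (4 higher and 13 lower at an unadjusted p under 0.05), so the 3 rises (P4hb, Stt3b and Ssr4) were not held. Over the same samples Jchain differed by 2.37 on this scale.

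**Figure D2:**
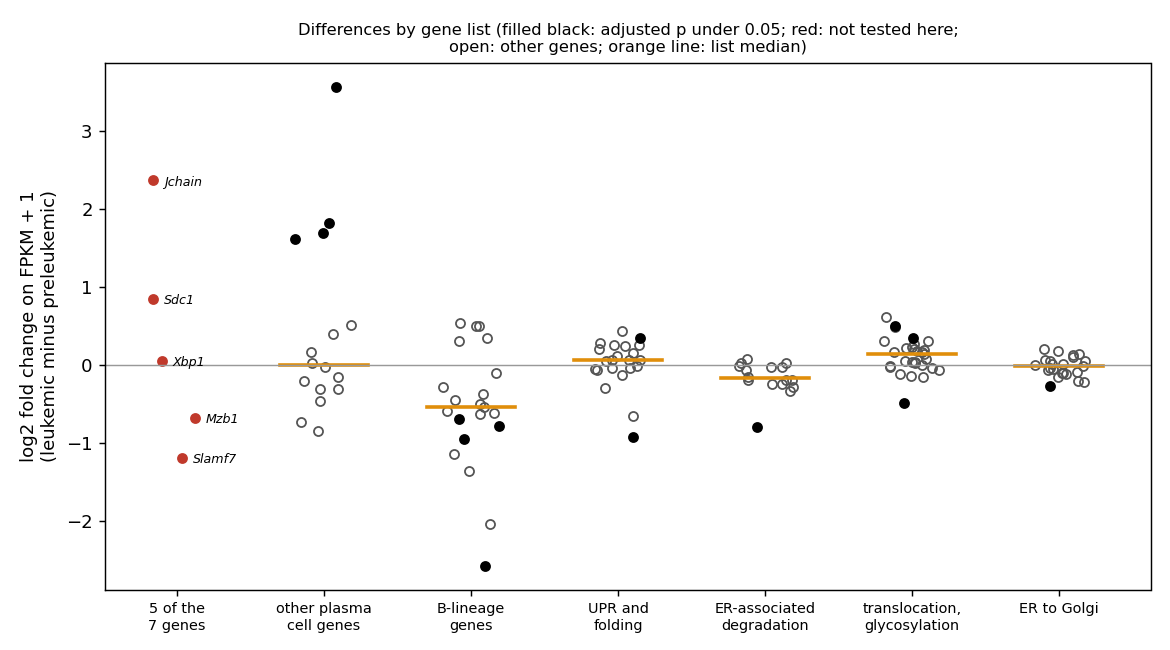
Log2 difference of FPKM + 1, leukemic minus preleukemic (y axis), for the 5 members that passed the filter (red, not tested) and for the genes of 6 lists (x axis, jittered), with filled black points for genes with an adjusted p under 0.05, open points for the others and orange lines for list medians. Jchain is at 2.37, while the points of the 4 secretory lists at the right lie between -0.93 and 0.62.

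Among sensors of the unfolded protein response and ER folding factors, 1 of 22 genes rose (P4hb), 1 fell (Eif2ak3) and 20 were not called (9.09% called, median 0.06). P4hb, a protein disulfide isomerase, was at 167, 148 and 156 FPKM in leukemic and 118 to 132 FPKM in preleukemic samples (log2 difference 0.35 ± 0.08, SE; adjusted p = 0.0275, limma). Eif2ak3, the stress sensor PERK, which plasma cells can do without, was at 33.1, 54.4 and 43.5 against 76.7 to 92.7 FPKM (-0.93 ± 0.16; adjusted p = 0.0167, limma). The abundant chaperones Calr and Hsp90b1 (Grp94, the partner of Mzb1) had log2 differences of 0.06 and -0.05, and the prolyl isomerase Ppib one of 0.43 (adjusted p = 0.681, 0.86 and 0.106, limma). Leukemic replicate 2, the leukemic sample with the highest Mzb1, also had the highest Calr (574 FPKM) and Hsp90b1 (571 FPKM) of all 7 samples. Ern1, the enzyme IRE1 that splices Xbp1, and Atf6, the third sensor, were named after their values were seen and had differences of 0.06 and -0.02 (adjusted p = 0.829 and 0.888, limma). The list's count was 1 without leukemic replicate 1 or preleukemic replicates 1 or 2, 0 without preleukemic replicates 3 or 4, and 3 without leukemic replicate 2.

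Of 16 genes of ER-associated degradation, 1 fell and 15 were not called (6.25% called, median -0.18). Ube2j1, the conjugating enzyme of this route, was at 64.5, 118 and 74.6 FPKM in leukemic and 129 to 151 FPKM in preleukemic samples (log2 difference -0.80 ± 0.20, SE; adjusted p = 0.0374, limma). The call was lost with any 1 sample left out except leukemic replicate 2. The ligase gene Syvn1 (-0.25) and the segregase gene Vcp (0.02) were not called (adjusted p = 0.105 and 0.896, limma). Of the 16 genes of ER-associated degradation, 13 lay below 0 and 3 above, and 6 were lower and 0 higher without overlap. Over all genes tested, 17.1% were lower and 14.9% were higher without overlap. Of 29 genes tested of signal recognition, translocation and N-glycosylation, 2 rose (Stt3b and Ssr4), 1 fell (Sec63) and 26 were not called (10.3% called, median 0.14). Stt3b, a catalytic subunit of oligosaccharyltransferase, was at 107, 79.5 and 82.2 against 55.7 to 71.7 FPKM (0.50 ± 0.13; adjusted p = 0.0467, limma). Ssr4, a subunit of the translocon-associated complex, was at 147, 163 and 168 against 120 to 133 FPKM (0.34 ± 0.08; adjusted p = 0.0297, limma), and Sec63, a translocon helper, at 23, 26.8 and 29.3 against 34.9 to 38.4 FPKM (-0.49 ± 0.10; adjusted p = 0.0214, limma). The most abundant genes of that list, Srp14, Sec61b and Sec11c, had differences of -0.12, 0.19 and -0.14 (adjusted p = 0.357, 0.147 and 0.424, limma). On that list 21 genes lay above 0 and 8 below, and 7 were higher and 1 was lower without overlap. The number called there was 1 without leukemic replicate 3 or preleukemic replicate 1, and 0 without preleukemic replicates 2, 3 or 4.

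Of 23 genes tested of ER to Golgi transport, 1 fell and 22 were not called (4.35% called, median -0.02). Sec24b, a COPII coat subunit, was at 15.5 to 16.9 FPKM in leukemic and 19 to 20.1 FPKM in preleukemic samples (log2 difference -0.27 ± 0.07, SE; adjusted p = 0.046, limma), a call that was lost with any 1 sample left out except leukemic replicate 3. The coatomer genes Copb2, Copa and Cope, the most abundant of the list, had differences of 0.21, -0.09 and 0.18 (adjusted p = 0.26, 0.41 and 0.163, limma).

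**Figure D3:**
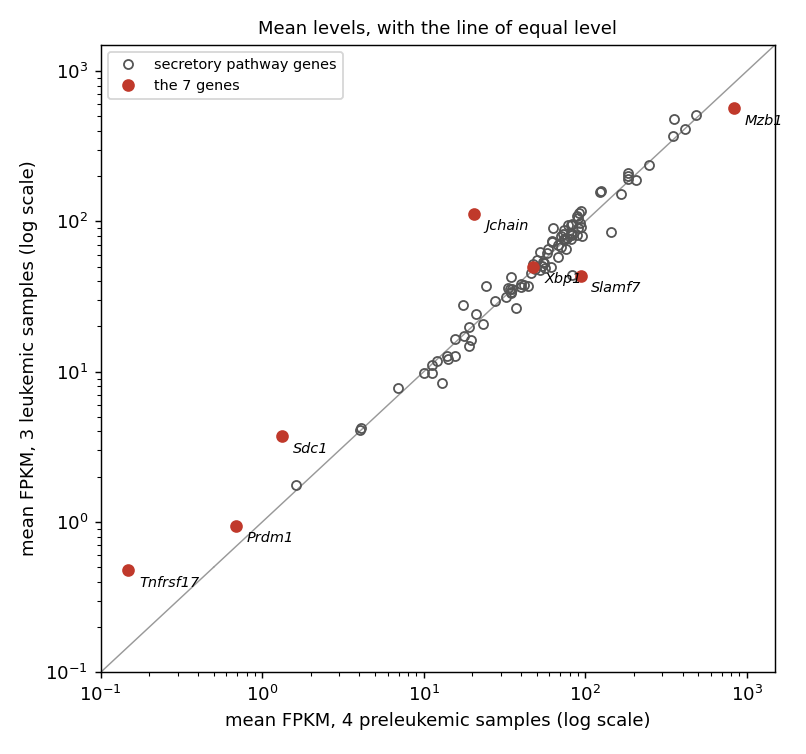
Mean FPKM in 3 leukemic samples (y axis, log scale) against mean FPKM in 4 preleukemic samples (x axis, log scale) for genes of the 4 secretory lists (open circles) and the 7 genes (red), with the line of equal level. Jchain lies above the line at 112 against 20.5 FPKM, Xbp1 lies on it at 49.8 against 47.7 FPKM, and Mzb1 and Slamf7 lie below it.

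Several of the 7 genes are also transcribed outside the B lineage, so the markers of other cells were set beside Jchain sample by sample. In leukemic samples Jchain was lowest in replicate 1 and highest in replicate 3, whereas the red cell and macrophage sums were lowest in replicate 1 and highest in replicate 2. The neutrophil sum, at 1598, 1467 and 1830 FPKM, was highest in replicate 3 as Jchain was, and lowest in replicate 2. The leukemic order of Jchain was also that of 1 of 14 red cell markers, 1 of 15 macrophage markers (Lyz2), 4 of 14 neutrophil markers (Mpo, Csf3r, Retnlg and Cxcr2) and 2 of 10 conventional dendritic cell markers (Itgax and Batf3). So it was for 4 of 15 BCP markers (Cd79a, Rag1, Spn and Ptprc) and 2 of 9 mature B-cell markers. Among T and NK cell markers it was 2 of 14, and among plasmacytoid dendritic cell markers 1 of 11. The share of all genes with this order was not computed, so nothing is read from these counts. In preleukemic replicate 1 the red cell sum was 2805 FPKM against at most 445 FPKM in the other 3, and Jchain was at 20.8 FPKM, inside the 18.6 to 22.2 FPKM of its group. Plasmacytoid dendritic cells, which are known for high Jchain, had a summed marker level of 101 to 142 FPKM in leukemic and 110 to 143 FPKM in preleukemic samples, and of 11 markers 1 was higher (Runx2) and 2 were lower (Ly6d and Il3ra) without overlap. Of these markers Siglech, Ccr9, Klk1, Cd300c and Runx2 were under 1 FPKM in all 7 samples, with Cd300c at the floor of 0.01 in each, while Bst2 (37.3 to 77.4 FPKM) and Tcf4 (31.4 to 49.5 FPKM) were well above it. Conventional dendritic cell markers summed to 6.21 to 10.6 and 0.816 to 2.3 FPKM, with 7 of 10 higher without overlap and Xcr1, Clec9a, Cd209a, Clec10a, Itgae and Ccl17 under 1 FPKM in all samples. Markers of T and NK cells, which also use Slamf7 and Prdm1, summed to 17.3, 88.7 and 31.8 FPKM in leukemic and 18.9 to 27.9 FPKM in preleukemic samples, with 3 of 14 higher and 1 lower without overlap. For comparison, 14.9% of the 10541 genes tested were higher and 17.1% were lower without overlap. Nothing is read from the plasmacytoid dendritic cell and T and NK cell counts against these shares. Leukemic replicate 2 held both the highest T and NK cell sum and the highest Prdm1. Neutrophil markers summed to 154 to 895 FPKM in preleukemic samples, and mature B-cell markers to 192 to 614 FPKM in leukemic and 483 to 689 FPKM in preleukemic samples. The part of any of these cells in the levels of the 7 genes was not tested.

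**Figure D4:**
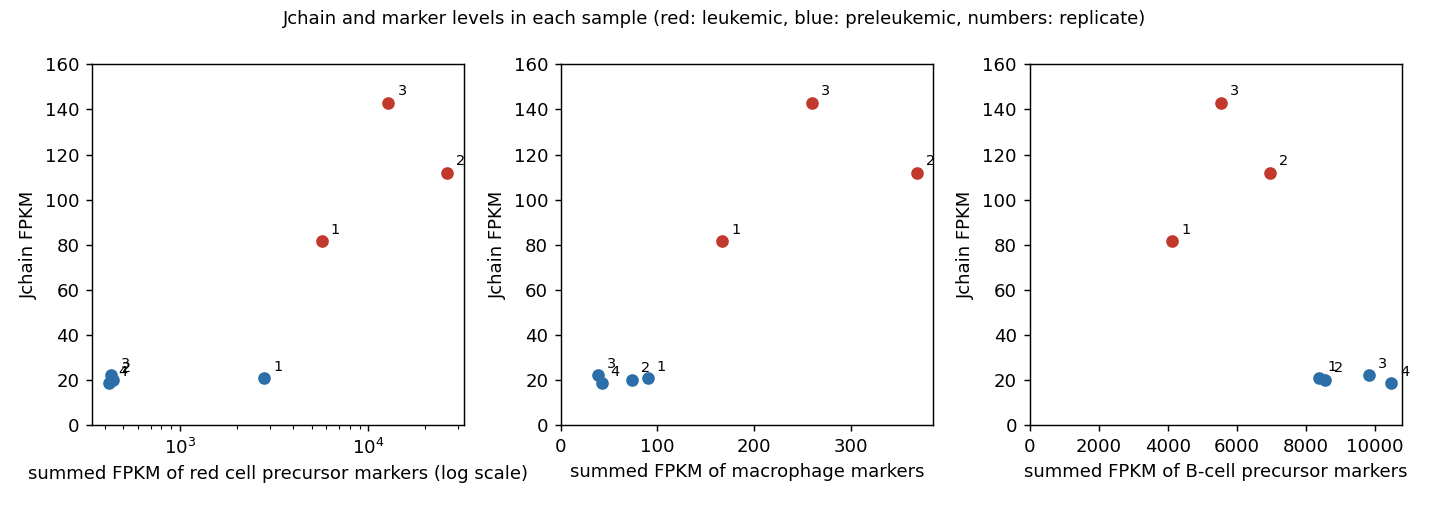
Jchain FPKM (y axis) against the summed FPKM of markers of red cell precursors (left, log scale), macrophages (middle) and B-cell precursors (right) in 3 leukemic (red) and 4 preleukemic (blue) samples, numbered by replicate. Leukemic replicate 3 has the highest Jchain (143 FPKM), and leukemic replicate 2 has the highest red cell sum (26290 FPKM) and macrophage sum (369 FPKM). The neutrophil sum, not drawn, is highest in leukemic replicate 3 (1830 FPKM). The part of these cells in Jchain was not tested.

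The genes whose profile over the 7 samples was most like that of Jchain were found by Pearson's r of log2(FPKM + 1), as a description over samples that share the split into groups. They were Ace (r = 0.998), Cd300e (0.997), Lst1 (0.996), Coprs (0.993) and Clec4a1 (0.992). None of the 5 is on the plasma cell or secretory lists. Ace, which encodes the angiotensin-converting enzyme, was at 3.24, 4.71 and 7.23 FPKM in leukemic and 0.0623 to 0.232 FPKM in preleukemic samples. Cd300e, a receptor of monocytes, was at 2.53, 4.09 and 4.8 against 0.0414 to 0.157 FPKM, and the C-type lectin gene Clec4a1 was at 3.02, 5.6 and 4.86 against 0.108 to 0.299 FPKM. Lst1, a leukocyte gene, was at 17.8, 26 and 29.1 against 4.14 to 5.71 FPKM, closest to Jchain in level. Coprs, a chromatin-bound cofactor gene of the methyltransferase PRMT5, was at 2.03, 2.88 and 2.75 against 0.57 to 0.732 FPKM. Monocyte markers were not examined as a list, and the part of monocytes in the profiles of Jchain and these 5 genes was not tested. No member of the set was among the nearest genes. The nearest member, Sdc1, ranked 2339 and Xbp1 ranked 3753 of the genes tested by this measure.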

How the data were processed

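The authors deposited 1 FPKM value per gene and sample. The submitters' processing notes name STAR 2.5.0b, Cufflinks 2.2.1, bedtools 2.17.0, Bowtie, DESeq2 and mm10, with no role or order. The study's methods fit counts with DESeq2, which FPKM values do not allow. Its filter was taken over as a sum of at least 10 FPKM, over 7 samples. Values are floored at 0.01 FPKM. Differences of log2(FPKM + 1), which understate changes of low genes, were fitted with limma 3.58.1 (lmFit, eBayes with intensity trend) in R 4.3.3 over 10541 genes without covariates, with Benjamini-Hochberg adjustment over all of them, and called at an adjusted p under 0.05. The p-values measure the spread between these samples. The fit was tested on simulated data. Other values were computed with Python 3.11.15, pandas 2.3.3 and numpy 2.4.6, and drawn with matplotlib 3.10.9.

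Depth was estimated from the steps of low FPKM values in 992 long genes (1 transcript each, over 1500 bases; fragment length assumed 200 bases). Per sample 102 to 145 values were low enough to use, and 99.2% to 100% of them were within 0.1 of a whole fragment. Intervals from it cover counting error only. Any pair of samples had at most 1 identical value that exceeded the floor.

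The members and lists were chosen with earlier results of these data known. Named are the 7 members, in each pathway list at most 3 genes with the highest mean FPKM and at most 5 called genes with the largest change, and the 5 genes most correlated with Jchain. Irf4, Ern1, Atf6 and the genes under other observations were named after their values were seen. Of the genes this rule names, 1 is not reported here, though it stays in the counts. Marker lists are given by their sums. Alternatives were a pseudocount of 0.1, no filter, a filter of 70 FPKM, quantile normalization, no trend, a replicate block and leaving out each sample. The 27 gene names turned into dates were left as listed.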

Additional observations from a re-analysis of the deposited data

Results flagged for a closer look

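Of 52 levels examined for 1 sample far from the other 3 of the preleukemic group (gap to the nearest sample divided by the whole range, critical value 0.829), 5 were beyond it, and chance alone would give about 1 in 20. Sdc1 in preleukemic replicate 3 was at 1.87 FPKM where the other 3 were at 1.08 to 1.19 FPKM, a ratio of 0.864. Summed markers of red cell precursors in preleukemic replicate 1 were at 2805 FPKM where the other 3 were at 422 to 445 FPKM (0.990). Fam46c was high in the same sample, at 6.67 FPKM where the other 3 were at 0.441 to 1.16 FPKM (0.884), and Sec63 was low in it, at 34.9 FPKM where the other 3 were at 38 to 38.4 FPKM (0.883). Copa was low in preleukemic replicate 2, at 74.3 FPKM where the other 3 were at 82.9 to 84.3 FPKM (0.859). The leukemic group, with 3 samples, was not examined in this way.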

How the results depend on the processing

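The log2 differences of the 5 members that passed the filter moved by less than 1 SD between replicates in all 64 comparisons with 13 alternatives (Sdc1 was under the 70 FPKM filter). Jchain was at 2.32 with the replicate block and at 2.17 to 2.58 with 1 sample left out. For 37 other named genes, 379 of 473 comparisons kept the side of the threshold, 88 lost the call and 4 gained one. The other 2 changed sign by 1 SD or more (Calr to -0.20 and Vcp to -0.06 under quantile normalization), and 0 called differences reversed. The 379 include smaller sign changes of genes not called, such as Cxcr4 (-0.03, and 0.10 without leukemic replicate 2). Over all genes, 1553 were called (893 higher, 660 lower), 1661 under quantile normalization (754 higher, 907 lower), 951 with the 70 FPKM filter and 149 to 1620 with 1 sample left out. Plasma cell genes called numbered 4, then 1 with the 70 FPKM filter and 0 to 5 with 1 sample left out. With quantile normalization they numbered 5, of which 4 were higher and 1 lower (Pou2af1). Under quantile normalization the count was 7 for B-lineage genes, 1 for the unfolded protein response, 2 for ER-associated degradation, 1 for translocation and 3 for ER to Golgi transport, all of them lower. With 1 sample left out the ranges were 1 to 7, 0 to 3, 0 to 1, 0 to 2 and 0 to 1 in that order. ER-associated degradation went to 0 with no filter, and ER to Golgi transport went to 0 with no trend. Same-numbered samples of the 2 groups did not deviate together (correlations of 0.03, 0.05 and -0.09), so the numbers were not taken as pairs, and with the replicate block 0 genes were called by limma, over all genes (2429 at an unadjusted p under 0.05, 3586 without the block) and in each list. Fits without a sample hold fewer samples and the block leaves fewer residual degrees of freedom. The causes of the shifts, these included, were not tested. Depth limits Tnfrsf17, with 0 to 8 fragments per sample.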

Other observations

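Receptors for BAFF and APRIL beside Tnfrsf17 were read after the members' values were seen. Tnfrsf13b (TACI) was at 18.1, 11.2 and 15.3 FPKM in leukemic and 18.8, 18.3, 20.8 and 24.8 FPKM in preleukemic samples. All leukemic values were below the preleukemic ones, and the log2 difference of -0.47 ± 0.17 (SE) was not called (adjusted p = 0.106, limma). Tnfrsf13c, the BAFF receptor of maturing B cells, was at 21, 39.1 and 64.2 against 45 to 66.5 FPKM, with overlap between the groups (-0.45; adjusted p = 0.377, limma). Both were transcribed far above Tnfrsf17, which did not exceed 0.801 FPKM in any sample.

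Bcl6 and Bach2 encode repressors that hold back Prdm1 and plasma cell differentiation. Bcl6 was at 17.8, 3.37 and 9.61 FPKM in leukemic and 3.2 to 7.95 FPKM in preleukemic samples (log2 difference 0.54; adjusted p = 0.459, limma). Bach2 was at 19.1, 7.31 and 15.5 against 15.9 to 26.6 FPKM (-0.62; adjusted p = 0.216, limma). Leukemic replicate 2 had the lowest Bcl6 and Bach2 of its group and the highest Prdm1, at 1.6 FPKM. In leukemic replicates 1 and 3, Sdc1 and Bcl6 were both higher than in replicate 2, as was Bach2. These orders come from 3 samples and were noticed after the values were seen, and no test was made of them.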
